A study of Homo sapiens with 6 samples.

Results

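The mitochondrial ribosomal protein genes were taken as the gene symbols that begin with MRPL or MRPS, followed by a number and at most 1 letter. Of 25528 gene symbols in the deposited expression table, 78 matched, of which 49 were MRPL symbols and 29 were MRPS symbols. RNA-seq was performed on DU-145/tet-XISTshRNA cells, an established line of prostate cancer cells that carries a vector for doxycycline (DOX)-inducible expression of an shRNA against the long noncoding RNA XIST. The vehicle group (0.1% DMSO) and the DOX group (500 ng/ml for 7 days) held 3 samples each. All 6 came from transduced cells that had been selected with puromycin or geneticin and grown in RPMI1640 medium with fetal bovine serum. No sample without the shRNA vector was analysed here, so effects of DOX itself and of the induced shRNA cannot be told apart.

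Mitochondria hold their own ribosome, which translates the few mRNAs encoded by mitochondrial DNA, all of them for subunits of the respiratory chain and ATP synthase. Its RNAs come from the mitochondrial genome, whereas every one of its proteins is encoded in the nucleus, made in the cytosol and imported. Some of these proteins descend from the proteins of bacterial ribosomes, and others are found only in mitochondria. DOX, a tetracycline, binds the small subunit of bacterial ribosomes and is known to slow translation in mitochondria as well, so these genes are of interest wherever DOX is the inducer.

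The targeted transcript, XIST, was listed at 0 in all 6 samples and could not serve as a check of silencing. EIF4A1, a translation factor that every cell uses, was also listed at 0 in all 6, so a 0 in this table need not mean an absent transcript. The epithelial genes KRT8 and KRT18 were present in every sample, at 59.9 to 91.2 and 75.9 to 147 TPM. The epithelial surface genes EPCAM and CDH1 were at 17.2 to 21.4 and 9.78 to 13.6 TPM in vehicle samples. In DOX samples EPCAM and CDH1 were at 8.57 to 13.8 and 5.11 to 9.14 TPM, both without overlap. A gap of this kind was common in TPM, since 30.7% of the genes averaging 1 TPM or more had it in the same direction. The markers of blood cells (PTPRC), endothelium (PECAM1) and fibroblasts (PDGFRB) were at 0.053 TPM or less, and the fibroblast gene COL1A1 was at 0.498 to 0.616 TPM in vehicle and 0.269 to 0.378 TPM in DOX samples. The part of these differences in the results was not tested. Of the luminal prostate markers, KLK3 was listed at 0 in all samples and KLK2 reached 0.042 TPM. TPM is a gene's reads per unit of length, scaled to 1000000 per sample. A set of 5 abundant small RNAs (RPPH1, RN7SK and the signal recognition particle RNAs RN7SL1, RN7SL2 and RN7SL3) took 67.5% to 76.0% of the TPM in vehicle and 76.0% to 82.6% in DOX samples, which lowers every other gene's TPM in the sample where they are higher. Reads counted on genes, estimated by combining the 2 deposited tables, ranged from 5453785 in vehicle replicate 3 to 64572749 in DOX replicate 1.

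Of the 78 genes, 77 had values above 0. Their TPM averaged over the 6 samples had a median of 15.1, with 5 genes at 50 TPM or more, 63 between 5 and 50, and 10 under 5. Genes of the MRPL series had a median of 15.1 TPM and those of the MRPS series 12.02 TPM. The exception was MRPS24, a small subunit protein with a bacterial counterpart, which was listed at 0 in all 6 samples. In GENCODE, 23.2% of the exonic bases of MRPS24 overlap the readthrough gene URGCP-MRPS24 on the same strand, which was also listed at 0.

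**Figure D1:**
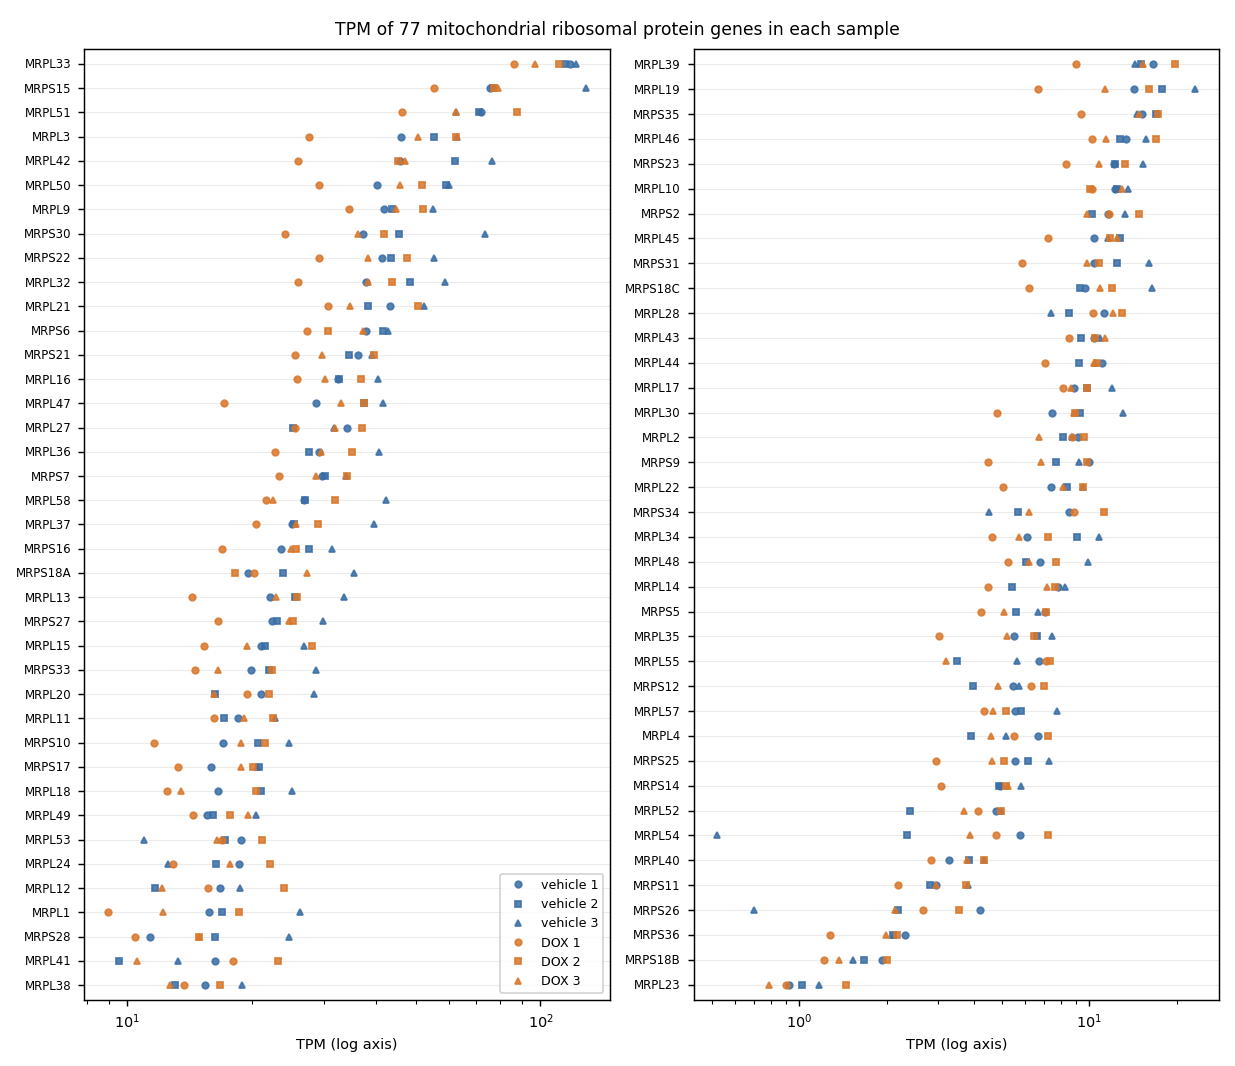
TPM (log axis) of each of the 77 mitochondrial ribosomal protein genes with values above 0 in the 3 vehicle samples (blue) and 3 DOX samples (orange), with genes ordered from the highest to the lowest mean. Vehicle replicate 3 is often the highest and DOX replicate 1 often the lowest, and MRPL54 and MRPS26 have their lowest value in vehicle replicate 3.

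MRPL33, a small protein of the large subunit with a bacterial counterpart, had the highest level, at 118, 114 and 122 TPM in vehicle replicates 1, 2 and 3 and 86.2, 111 and 97.3 TPM in DOX replicates 1, 2 and 3. Each DOX sample was under the lowest vehicle sample, with group means of 118 ± 3.79 and 98.2 ± 12.5 TPM (SD, n = 3 each). MRPS15, of the small subunit, followed at 75.4, 76.8 and 129 TPM in vehicle and 55.3, 77.3 and 79.0 TPM in DOX samples. MRPL51, a large subunit protein found only in mitochondria, was at 71.8, 71.1 and 62.4 TPM in vehicle and 46.2, 87.9 and 62.3 TPM in DOX samples. MRPL3, which has a bacterial counterpart in the large subunit, averaged 54.7 ± 8.53 TPM in vehicle and 46.9 ± 17.7 TPM in DOX samples, and the groups overlapped for these 3 genes. The spread among DOX samples of MRPS15, MRPL51 and MRPL3 means that neighbours in the order of levels after MRPL33 did not separate.

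At the other end, MRPL23 averaged 1.04 ± 0.122 TPM in vehicle and 1.04 ± 0.355 TPM in DOX samples (SD, n = 3 each), the lowest of the genes above 0. MRPS18B averaged 1.71 ± 0.203 and 1.53 ± 0.422 TPM, and MRPS36 2.18 ± 0.108 and 1.81 ± 0.475 TPM. MRPS36 has since been assigned to the α-ketoglutarate dehydrogenase complex and is counted here only because its symbol matches. MRPS26, which is found only in mitochondria, was next with 2.36 ± 1.75 TPM in vehicle and 2.78 ± 0.720 TPM in DOX samples. In TPM, the 3 paralogs descended from bacterial protein S18 differed widely. MRPS18A, which sits in the large subunit despite its name, averaged 26.3 ± 8.16 TPM in vehicle and 21.9 ± 4.71 TPM in DOX samples. MRPS18C averaged 11.8 ± 4.06 and 9.66 ± 3.04 TPM, so that MRPS18A, MRPS18C and MRPS18B kept this order of TPM in both groups. Estimated reads did not follow it. In vehicle replicate 1 they numbered 433, 192 and 485 for MRPS18A, MRPS18C and MRPS18B. The GENCODE exonic lengths of these genes are 1385, 4866 and 1757 bases. The gene lengths behind the deposited TPM are not given in the sources used here, so the order in TPM need not be one of transcript level. In GENCODE, 50.9% of the exonic bases of MRPS18A lie opposite RSPH9 and 40.2% of those of MRPS18C opposite ABRAXAS1.

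Depth limited the precision for the low genes. The median number of estimated reads per gene over the 77 was 129 in vehicle replicate 3, against 427 to 1891 in the other samples. In vehicle replicate 3, 32 of the 77 genes had fewer than 100 reads, whereas in each of the other samples at most 6 did. MRPL54 had 1 read there and MRPS26 had 3.

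The 77 genes did not separate vehicle from DOX when TPM was summed over them. The sum was 1528, 1583 and 1950 TPM in vehicle replicates 1, 2 and 3 and 1127, 1730 and 1455 TPM in DOX replicates 1, 2 and 3. The groups overlapped, with means of 1687 ± 229 and 1437 ± 302 TPM (SD, n = 3 each). As a share of the reads counted on genes, the same genes took 0.259%, 0.252% and 0.249% in vehicle and 0.284%, 0.304% and 0.282% in DOX samples. By this measure all DOX samples lay above all vehicle samples. The share of the TPM left after taking out the 5 small RNAs was 0.636%, 0.624% and 0.599% in vehicle and 0.648%, 0.720% and 0.645% in DOX samples, again without overlap. The direction of the summed level therefore depended on what the genes were scaled to. No test was run on these sums, since the genes were chosen with results of these samples known.

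**Figure D2:**
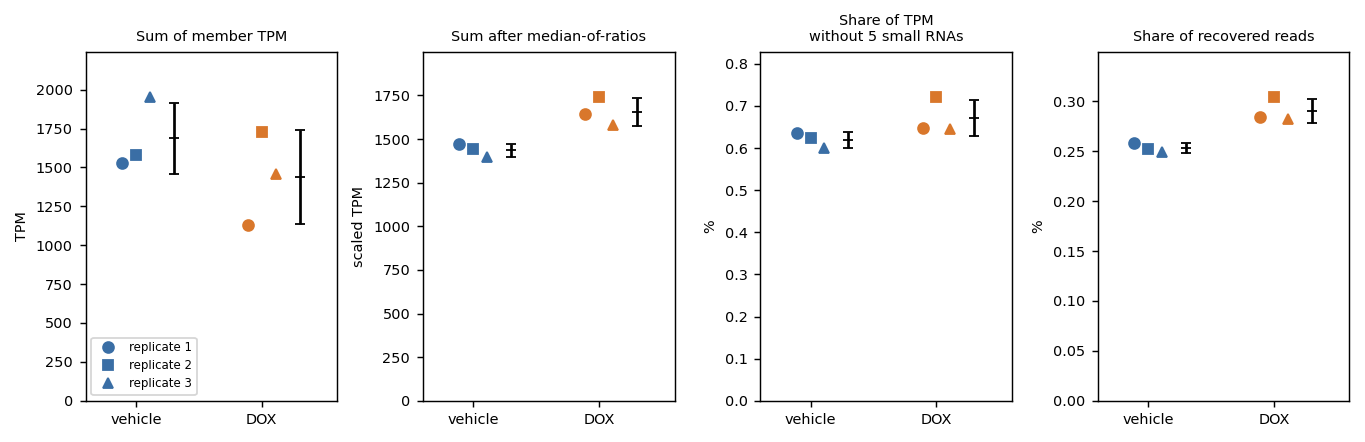
Sum of the mitochondrial ribosomal protein genes in each sample, as TPM, as TPM after median-of-ratios scaling, as percent of the TPM without 5 small RNAs and as percent of the recovered reads. Symbols mark replicates, and bars the mean ± SD of 3 samples. The groups overlap on the TPM scale alone (means of 1687 and 1437), and all DOX samples are above all vehicle samples in the other 3 panels.

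Median-of-ratios scaling divides each sample by the median ratio of its genes to their mean over samples, so that the typical gene has no difference between samples. It shifted the log2 fold change, DOX over vehicle, of the typical gene (the median over all genes tested) from -0.35 on the TPM scale to 0.02. On the TPM scale the median of the 77 mitochondrial ribosomal protein genes was -0.19, with 63 genes below 0 and 14 above. After scaling their median was 0.22, with 9 below 0 and 68 above. Relative to the median of all genes, 60 of the 77 lay higher on the TPM scale and 67 after scaling. The sign of the change in most of these genes thus turned with the scaling. Their position above the typical gene stayed within 0.16 to 0.20 log2 units on these 2 scales. That position rested on the minimum of 1 TPM. Without a minimum, the median over 19251 genes was -0.20 on the TPM scale, and 43 of the 77 lay above it.

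**Figure D3:**
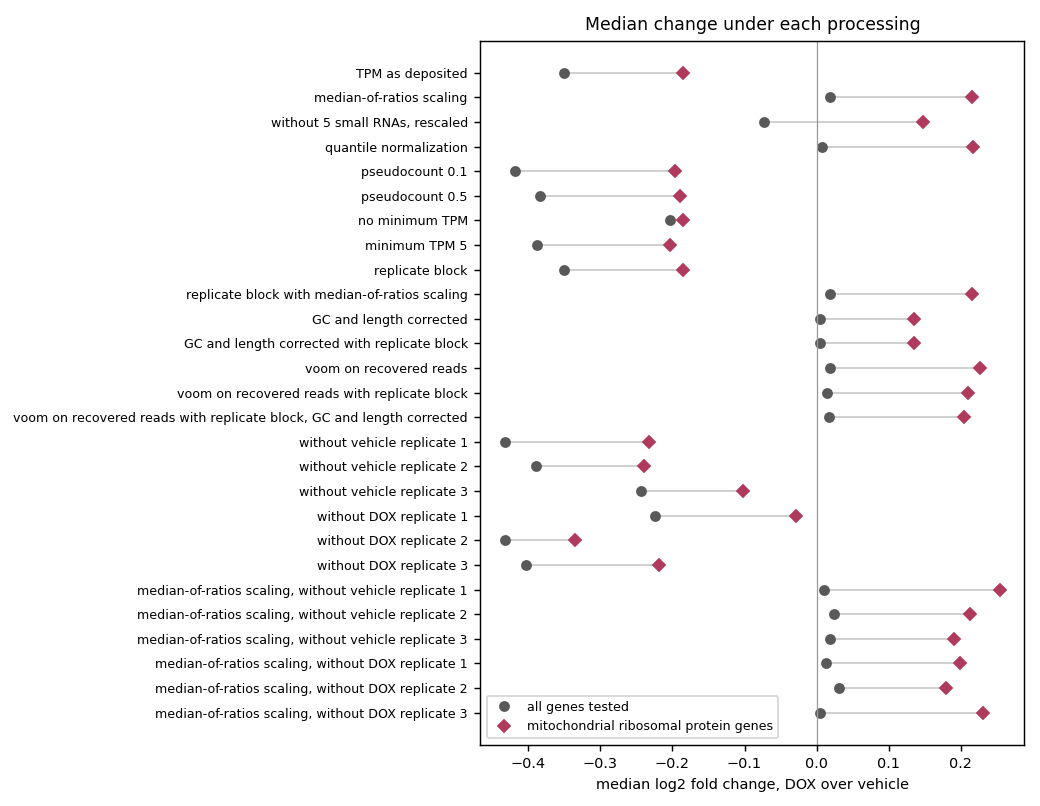
Median log2 fold change, DOX over vehicle, of the mitochondrial ribosomal protein genes (diamonds) and of all genes tested (circles) under each processing, named on the vertical axis. The median of the mitochondrial ribosomal protein genes is above that of all genes in every row, although barely so without a minimum TPM (-0.19 against -0.20). It lies below 0 with TPM as deposited (-0.19) and above 0 after median-of-ratios scaling (0.22).

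None of the 77 genes passed the test with limma on log2(TPM + 1), which required an adjusted p-value under 0.05 and a change of more than 1.5-fold (0 lower, 0 higher). Over all 11672 genes tested, 2.98% were called lower and 0.0257% higher. Before adjustment, 2 of the 77 were lower and 1 was higher with p under 0.05 and the same fold, beside 19% and 0.12% of all genes. After median-of-ratios scaling, again none of the 77 was called in either direction, and neither was any gene (0% lower and 0% higher of 11630 genes). Before adjustment, 0 of the 77 were then lower and 6 higher, beside 1.14% and 1.19% of all genes. Voom on recovered reads without the replicate number likewise called 0 of the 77, beside 1 lower and 0 higher of all 11672 genes.

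With the replicate number as a term in the fit on TPM, MRPL19 and MRPL42 were called lower and MRPL54 higher, which is 2 and 1 of the 77 beside 19% and 0.129% of all genes. In that fit the SEs of MRPL19, MRPL42 and MRPL54 were 0.20, 0.20 and 0.19, drawn almost wholly from a variance trend shared over genes. Its p-values do not measure the spread of each gene. With voom on the recovered reads and the same term, 0 were called lower and 5 higher, beside 2.21% and 1.41% of all genes. The 5 were MRPS34, MRPL28, MRPL41, MRPS12 and MRPL12, with log2 fold changes of 0.67 to 0.92. No gene of the family was called in the same direction by both of these fits. With the term, limma called 0 of the 77 after median-of-ratios scaling or after correction for GC content and length. Voom after that correction also called 0. Over all genes, these limma fits called 0 lower and 0 higher, and this voom fit 5 lower and 0 higher of 11301.

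Few of these genes fell without overlap. On the TPM scale, the DOX group lay wholly under the vehicle group for MRPL33, MRPL57, MRPS6 and MRPS25, which is 4 of the 77 or 5.19%, against 30.7% of all genes. They were above for 0 of the 77, against 0.223% of all genes. After median-of-ratios scaling, all DOX samples were below for MRPS25 alone, or 1.3%, against 9.13% of all genes. They were above all vehicle samples for 18 of the 77, or 23.4%, against 10.9% of all genes. These 18 held 12 MRPL and 6 MRPS genes, among them MRPL9, MRPL11, MRPL28, MRPL49 and MRPS12. MRPL9 is an example of the narrow spread within groups after scaling, with 40.2, 39.7 and 39.4 in vehicle and 49.97, 52.2 and 48.5 in DOX samples (scaled TPM). Its log2 fold change was 0.33 ± 0.11 (SE) with an adjusted p-value of 0.281 by limma.

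The data left room for changes on the TPM scale and less after scaling. The 95% confidence interval of the log2 fold change lay within 1.5-fold in both directions for 10 of the 77 genes on the TPM scale and for 51 after median-of-ratios scaling. These bounds apply to values with 1 added before the log, so they allow a larger fold in TPM for low genes. Among the 10 were MRPL23 and MRPS18B, with means of 1.04 and 1.62 TPM over the samples. The low TPM of MRPS18B did not go with few reads. It had 90 to 1837 estimated reads per sample, against 8 to 158 for MRPL23. After scaling, 76 of the 77 had a lower bound above a 1.5-fold fall. The interval excluded 0 for 3 genes below and 1 above on the TPM scale, beside 29.2% and 0.206% of all genes. After scaling it did so for 0 below and 18 above, beside 7.74% and 8.1% of all genes.

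The 6 genes with the lowest log2 fold change on the TPM scale were MRPL19, MRPL42, MRPS30, MRPL1, MRPS31 and MRPS25. MRPL19, a large subunit protein with a bacterial counterpart, was at 14.2, 17.8 and 23.2 TPM in vehicle and 6.66, 16.1 and 11.3 TPM in DOX samples. The groups overlapped through DOX replicate 2, with a log2 fold change of -0.70 ± 0.28 (SE) and an adjusted p-value of 0.101 by limma. It was 0.00397 with the replicate term. The scaled values of MRPL19 gave -0.29 ± 0.17 on the log2 scale, with an adjusted p-value of 0.404. MRPL42, a large subunit protein found only in mitochondria, was at 45.8, 62.2 and 76.3 TPM in vehicle and 25.8, 45.1 and 47.1 TPM in DOX samples. Its log2 fold change was -0.65 ± 0.29 (SE), with an adjusted p-value of 0.131 by limma and 0.00858 with the replicate term. Only DOX replicate 3 reached above the lowest vehicle sample.

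MRPS30, which despite its symbol belongs to the large subunit, was at 37.2, 45.4 and 73.4 TPM in vehicle and 24.1, 41.8 and 36.2 TPM in DOX samples. MRPL1, the protein of the mobile L1 stalk through which spent tRNA leaves, was at 15.8, 16.9 and 26.2 TPM in vehicle and 8.96, 18.6 and 12.2 TPM in DOX samples. Both groups overlapped for these genes, and vehicle replicate 3 was the highest sample in each. MRPS31, a small subunit protein found only in mitochondria, averaged 13.0 ± 2.88 TPM in vehicle and 8.84 ± 2.61 TPM in DOX samples. MRPS25, also of the small subunit, was at 5.53, 6.16 and 7.23 TPM in vehicle and 2.95, 5.08 and 4.63 TPM in DOX samples, the only one of the 6 without overlap. Its log2 fold change was -0.50 ± 0.23 (SE) on the TPM scale and -0.14 ± 0.12 after scaling, with adjusted p-values of 0.146 and 0.573 by limma. In GENCODE, 39.1% of the exonic bases of MRPS25 lie opposite NR2C2 on the other strand, and whether reads were counted by strand is not stated.

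The 6 genes with the highest log2 fold change were MRPL54, MRPS34, MRPL28, MRPL41, MRPS26 and MRPL53. MRPL54, a large subunit protein found only in mitochondria, was at 5.77, 2.36 and 0.522 TPM in vehicle and 4.76, 7.18 and 3.86 TPM in DOX samples. Vehicle replicate 1 lay within the DOX samples, and vehicle replicate 3 rested on the 1 read given above. The log2 fold change was 0.91 ± 0.30 (SE) on the TPM scale, with an adjusted p-value of 0.0627 by limma and 9.32e-05 with the replicate term. The latter p-value rests on the variance shared over genes and not on the spread of MRPL54 itself. Without vehicle replicate 3 the log2 fold change was 0.36, with an adjusted p-value of 0.593 by limma. No other single sample moved the value of MRPL54 as far down.

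MRPS34, a small subunit protein needed for the stability of that subunit, was at 8.50, 5.67 and 4.50 TPM in vehicle and 8.85, 11.3 and 6.19 TPM in DOX samples. After median-of-ratios scaling it was at 8.18, 5.16 and 3.22 in vehicle and 12.9, 11.3 and 6.72 in DOX samples, with overlap through DOX replicate 3. Its log2 fold change was 0.44 ± 0.25 (SE) on the TPM scale and 0.82 ± 0.29 after scaling, with adjusted p-values of 0.227 and 0.282 by limma. By voom on recovered reads with the replicate term it was 0.87 ± 0.19, with an adjusted p-value of 0.0213. In GENCODE, 31.2% of the exonic bases of MRPS34 lie opposite EME2.

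MRPL28, with a bacterial counterpart in the large subunit, was at 11.2, 8.51 and 7.36 TPM in vehicle and 10.3, 13.0 and 12.02 TPM in DOX samples. After scaling, all 3 DOX samples (15.0, 13.1 and 13.1) were above the vehicle samples (10.8, 7.76 and 5.27), with a log2 fold change of 0.76 ± 0.20 (SE) and an adjusted p-value of 0.281 by limma. MRPL41, found only in mitochondria, averaged 13.0 ± 3.39 TPM in vehicle and 17.2 ± 6.36 TPM in DOX samples, with overlap. MRPL53 averaged 15.7 ± 4.15 and 18.2 ± 2.59 TPM, and 72.8% of its exonic bases overlap CCDC142 on the same strand, so its reads may be shared. MRPS26 had a log2 fold change of 0.30 ± 0.25 (SE) on the TPM scale, which was -0.12 without vehicle replicate 3. MRPL41, MRPL53 and MRPS26 did not pass the adjusted threshold on either scale. Of the other genes called by voom with the replicate term, MRPS12, a protein of the decoding site, averaged 4.32 ± 0.828 scaled TPM in vehicle and 7.14 ± 1.97 in DOX samples. MRPL12, which recruits translation factors to the stalk of the large subunit, averaged 13.4 ± 2.75 and 20.0 ± 5.96 scaled TPM, and 69.5% of its exonic bases overlap an unnamed gene on the same strand.

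**Figure D4:**
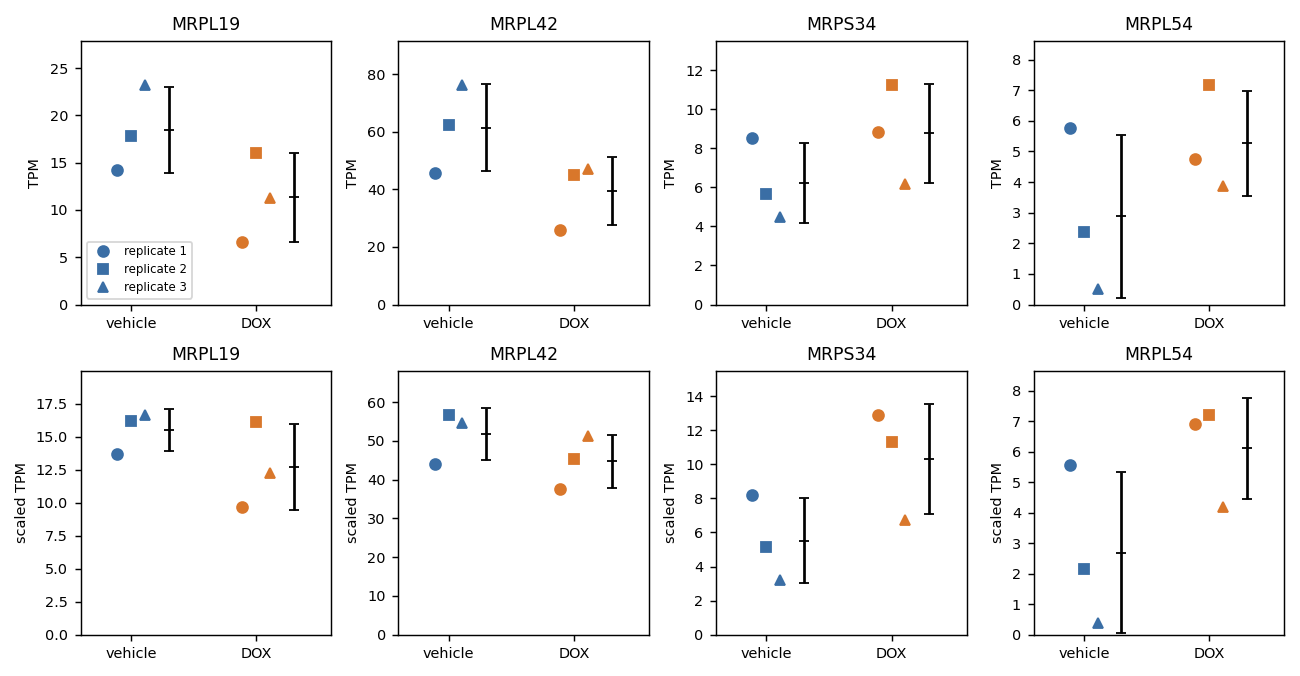
MRPL19, MRPL42, MRPS34 and MRPL54 in each sample as TPM (top) and as TPM after median-of-ratios scaling (bottom), with replicates as symbols and the mean ± SD of 3 samples as bars. MRPL19 and MRPL42 are lower in most DOX samples on the TPM scale and close after scaling, and MRPL54 is lowest in vehicle replicate 3 (0.522 TPM).

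The genes at both ends of the order differed in base composition over their exons, and along the coding sequence the difference depended on the stretch read. The last 150 coding bases of 3 of the lowest genes and of the highest gene are given with G and C in capitals, from GENCODE release 44 on GRCh38. MRPL19 lies on chromosome 2 (75646783 to 75690851, plus strand), MRPL42 on chromosome 12 (93467514 to 93516214, plus strand) and MRPS30 on chromosome 5 (44808947 to 44820428, plus strand). MRPL54 lies on the plus strand of chromosome 19 (3762682 to 3768575).
MRPL19: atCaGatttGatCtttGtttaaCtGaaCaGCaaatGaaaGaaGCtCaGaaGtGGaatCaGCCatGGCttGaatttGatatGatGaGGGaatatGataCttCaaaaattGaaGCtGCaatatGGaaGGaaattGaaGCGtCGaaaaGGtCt
MRPL42: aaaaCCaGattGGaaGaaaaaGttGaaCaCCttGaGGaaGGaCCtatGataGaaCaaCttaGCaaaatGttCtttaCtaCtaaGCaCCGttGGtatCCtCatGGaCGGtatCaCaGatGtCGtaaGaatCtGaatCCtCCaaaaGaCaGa
MRPS30: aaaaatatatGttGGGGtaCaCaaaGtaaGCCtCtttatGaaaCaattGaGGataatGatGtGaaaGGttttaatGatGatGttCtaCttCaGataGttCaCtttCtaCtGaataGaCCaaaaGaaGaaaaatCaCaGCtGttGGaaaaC
MRPL54: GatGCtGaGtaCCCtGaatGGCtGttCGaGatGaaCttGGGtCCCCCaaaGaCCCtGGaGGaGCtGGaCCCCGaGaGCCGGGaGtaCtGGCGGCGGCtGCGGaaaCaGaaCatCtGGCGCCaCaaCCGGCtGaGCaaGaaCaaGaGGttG
G and C made up 36.0%, 39.3% and 32.0% of these windows in MRPL19, MRPL42 and MRPS30, and 60.0% in MRPL54. The first 150 coding bases did not separate the genes in this way, at 70.7%, 36.7% and 68.0% in MRPL19, MRPL42 and MRPS30 and 62.0% in MRPL54. Over the whole coding sequence the values were 47.1%, 39.9% and 51.2% and, in MRPL54, 60.1%. Over all exonic bases the GC content was 37.9%, 38.4% and 38.0% in the 3 lower genes and 62.5% in MRPL54, and it was 62.8% in MRPL28 and 64.6% in MRPS34. All 6 of the lowest genes were under 45% and all 6 of the highest over 55%.

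Across the 77 genes, the log2 fold change on the TPM scale followed exonic GC content, with a Pearson r of 0.72 and a Spearman rho of 0.71. The genes share the same 6 libraries and are not independent replicates, so this is a description without a test. Of the 30 genes under 45% GC, 0 had a log2 fold change above 0, and their median was -0.32. Of the 29 genes from 45% to 55%, 3 were above 0 (median -0.16), and of the 18 genes over 55%, 11 were (median 0.10). All genes tested showed the same order, with medians of -0.53, -0.30 and -0.13 in these ranges and an r of 0.68 over 11301 genes. In each range the mitochondrial ribosomal protein genes had the higher median. After median-of-ratios scaling the medians of these genes were 0.09, 0.24 and 0.48, beside -0.15, 0.07 and 0.23 for all genes.

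The relation with GC content was also seen in single samples. The correlation of each sample's deviation from the gene's mean with GC content, over the 77 genes, was 0.36, -0.66 and -0.54 in vehicle replicates 1, 2 and 3. It was 0.82, 0.40 and -0.21 in DOX replicates 1, 2 and 3. Samples of the same treatment thus differed in sign. Over all 11301 genes the values were 0.17, -0.69 and -0.53 in vehicle and 0.85, -0.14 and 0.22 in DOX samples. DOX replicates 2 and 3 therefore had the opposite sign over all genes. After each sample was corrected for GC content and exonic length, r of the log2 fold change with GC content was 0.02 over the 77 genes. The median of the 77 was then 0.14, with 62 above 0, beside 51.5% of all genes above 0, and the medians in the 3 GC ranges were 0.18, 0.13 and 0.16. Neither direction held a called gene (0 lower, 0 higher by limma), and the smallest adjusted p-value among the 77 was 0.325. The median GC content of these genes, 47.9%, was close to that of all genes tested, 47.0%, whereas their median exonic length of 2544 bases was under that of all genes, 5453 bases.

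**Figure D5:**
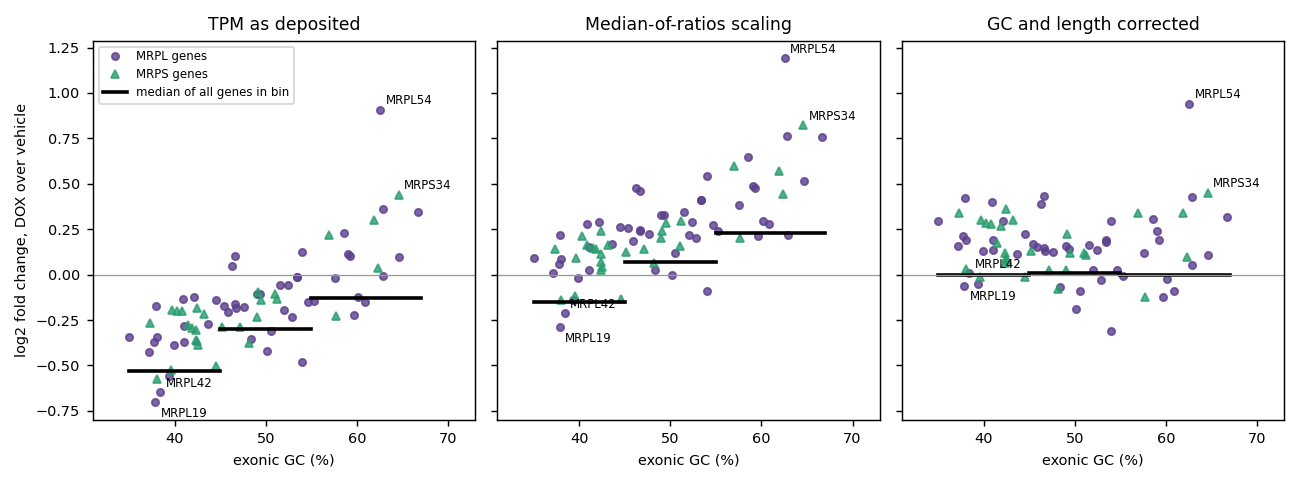
Log2 fold change, DOX over vehicle, of 77 mitochondrial ribosomal protein genes against their exonic GC content (%), on the TPM scale, after median-of-ratios scaling and after correction for GC content and length. Black lines are the medians of all genes under 45%, from 45% to 55% and over 55% GC. Values climb with GC content in the first 2 panels (r of 0.72 in each) and not in the third (r of 0.02), where most genes lie above 0.

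By role, the classes lay close together. The 30 large subunit proteins with bacterial counterparts had a median log2 fold change of -0.18 on the TPM scale and 0.22 after median-of-ratios scaling. The 21 large subunit proteins found only in mitochondria were at -0.13 and 0.28. Of the small subunit, the 15 tested proteins with bacterial counterparts were at -0.23 and 0.16, and the 10 classed as found only in mitochondria at -0.24 and 0.15. MRPS18B was counted in the latter class, although it is a paralog descended from bacterial protein S18. No class held a gene called by limma on either scale (0 in each). The median exonic GC content of the 4 classes, in the same order, was 49.6%, 49.4%, 47.1% and 43.5%. After correction for GC content and length the 4 medians were 0.13, 0.15, 0.12 and 0.20.

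Ribosomal proteins with other kinds of symbols moved over a similar range. Of 5 in the table, 0 were called by limma on either scale, and voom with the replicate term called AURKAIP1 higher (log2 fold change 1.03 ± 0.25, SE, adjusted p-value 0.0282). AURKAIP1, a protein of the small subunit, was at 6.47, 2.90 and 3.85 TPM in vehicle and 6.44, 8.79 and 5.21 TPM in DOX samples, with a log2 fold change of 0.56 ± 0.25 (SE), an adjusted p-value of 0.131 and a GC content of 67.4%. PTCD3, a small subunit protein with RNA-binding repeats, was at 12.4, 14.8 and 18.5 TPM in vehicle and 7.29, 12.4 and 10.8 TPM in DOX samples, with a log2 fold change of -0.55 ± 0.26 (SE), an adjusted p-value of 0.152 and a GC content of 41.3%. DAP3, the GTP-binding protein of the small subunit, averaged 31.8 ± 5.63 TPM in vehicle and 26.9 ± 5.68 TPM in DOX samples. These 3 genes were ordered by GC content as the MRPL and MRPS genes were.

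The factors that load and run the mitochondrial ribosome showed no call either. Of 14 tested translation factors, 0 were lower and 0 higher, with medians of -0.35 on the TPM scale and 0.03 after scaling. LRPPRC, which stabilises mitochondrial mRNAs, averaged 69.2 ± 13.0 TPM in vehicle and 47.6 ± 16.8 TPM in DOX samples, and its partner SLIRP 86.7 ± 9.13 and 91.1 ± 27.1 TPM. TUFM, the elongation factor that brings aminoacyl-tRNA to the ribosome, averaged 21.7 ± 4.30 and 22.3 ± 1.03 TPM. Of 19 tested mitochondrial aminoacyl-tRNA synthetases and related enzymes, 0 were called, with medians of -0.27 and 0.08. IARS2, which charges isoleucine tRNA, averaged 64.0 ± 5.64 TPM in vehicle and 44.7 ± 12.3 TPM in DOX samples, with an adjusted p-value of 0.18 by limma. Of 24 tested assembly factors, 0 were called, with medians of -0.27 and 0.09, and limma with the replicate term called 2 of them lower, beside 19% of all genes. These were METTL15, which methylates the small ribosomal RNA, and GTPBP10, a GTPase of large subunit assembly, with log2 fold changes of -0.70 ± 0.24 and -0.69 ± 0.24 (SE) and adjusted p-values of 0.0692 and 0.0712 by limma, which became 0.00272 and 0.00253 with the term. Both have a GC content under 37%. Voom with the replicate term called 0 of the 24 lower and 1 higher, beside 2.21% and 1.41% of all genes. This was DDX28, an RNA helicase of large subunit assembly, with a log2 fold change of 0.66 ± 0.19 (SE) and an adjusted p-value of 0.044. The 13 mRNAs and 2 ribosomal RNAs of the mitochondrial genome were not found by symbol in the deposited expression table, so they could not be analysed here.

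The cytosolic ribosome gave a comparison of like function. Its 76 tested protein genes had a median log2 fold change of -0.12 on the TPM scale, 0.32 after median-of-ratios scaling and 0.17 after correction for GC content and length, beside -0.19, 0.22 and 0.14 for the mitochondrial ribosomal protein genes. None of the 76 was called by limma on the first 2 scales (0 lower, 0 higher), and voom with the replicate term called 5 of them higher, beside 1.41% of all genes. A test of the difference between the families was not made.

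The region upstream of the transcription start was searched because these genes encode parts of a single complex. RefSeq promoters (GRCh38.p14) were found for 69 of the 78 genes, and 250 bases upstream of the start were read on both strands. CCGGAAG, the core letters bound by ETS factors, or its complement was found in 23 of the 69, or 33.3%, against 17.2% of the promoters of genes tested and 8.8% of all promoters. AAGATGGC, the core letters of YY1, was found in 7.2%, against 2.0% and 1.4%. GCGCATGCG, letters of NRF1, was found in 4.3%, against 3.4% and 1.8%, and GGGGCGGGG, letters of SP1, in 24.6%, against 27.7% and 15.4%. CCAAT was found in 27.5%, against 35.3% and 33.0%, and TATAAA in 2.9%, against 4.9% and 11.1%. These windows are not independent of base composition, and a match describes letters and not a bound site. The windows of MRPL20, a large subunit protein, and MRPL58, a peptidyl-tRNA hydrolase built into the large subunit, are given as examples with 2 ETS matches each, with the matches in capitals. They lie at chr1:1407294-1407543 on the minus strand and chr17:75012420-75012669 on the plus strand.
MRPL20: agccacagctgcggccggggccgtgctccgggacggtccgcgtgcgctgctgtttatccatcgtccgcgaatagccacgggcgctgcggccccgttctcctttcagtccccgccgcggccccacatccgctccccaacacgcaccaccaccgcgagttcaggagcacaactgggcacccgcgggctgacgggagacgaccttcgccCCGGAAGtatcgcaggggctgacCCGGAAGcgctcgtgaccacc
MRPL58: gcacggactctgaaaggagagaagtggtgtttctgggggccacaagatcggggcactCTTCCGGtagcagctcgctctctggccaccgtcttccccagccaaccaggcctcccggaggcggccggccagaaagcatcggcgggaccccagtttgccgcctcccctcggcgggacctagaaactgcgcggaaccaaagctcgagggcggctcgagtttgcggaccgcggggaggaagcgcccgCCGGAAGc
The 23 genes with the ETS letters had a median log2 fold change of -0.23 on the TPM scale and 0.20 after median-of-ratios scaling, and the 45 tested genes without them -0.17 and 0.24. The difference between these groups was not tested.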

How the data were processed

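RNA-seq was performed on 3 vehicle-treated and 3 DOX-treated samples of DU-145/tet-XISTshRNA cells, grouped and numbered from the sample labels. The labels name an RNeasy kit and the paper Trizol for RNA isolation. Per the labels, stranded mRNA libraries were made, and the authors aligned reads with STAR to GRCh38 and deposited TPM per gene symbol. Tool versions and the counting tool's strand setting are not given in the sources used here. A second deposited table holds the authors' fold changes and p-values, which were not used, and the mean of normalized counts, which was. Reads were recovered from TPM and that mean. For 99.9% of 6281 genes under 100 reads, whole reads gave back the mean within a relative 1e-06, and larger read numbers are estimates.

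Genes whose TPM averaged 1 or more over the 6 samples were tested with limma 3.58.1 (R 4.3.3) on log2(TPM + 1), with a variance trend and without a replicate term. p-values were adjusted over all genes tested by the Benjamini-Hochberg method, and a call needed both an adjusted p-value under 0.05 and more than a 1.5-fold difference. Differences are on the log2(TPM + 1) scale, which understates those of low genes. The samples are cultures of 1 line, so p-values reach no further than these cultures. On the TPM scale limma's SEs drew mostly on the variance trend shared over genes, and almost wholly so with the replicate term. Those p-values therefore do not measure each gene's own spread between cultures. GC content and exonic length came from GENCODE release 44, matched for 91.3% of symbols, and were corrected by splines with 5 degrees of freedom in each sample. Samples with the same replicate number deviated together on the TPM scale, with r of 0.57, 0.24 and 0.21 for numbers 1, 2 and 3, and the numbers were therefore taken to pair the samples, although samples with different numbers reached r of 0.19 (lowest -0.38). Fits with and without a replicate term are both given where the calls differ. After median-of-ratios scaling r was 0.56, 0.26 and 0.19 for the same numbers, and 0.22 for vehicle replicate 2 with DOX replicate 3. After GC and length correction r was 0.18, 0.00 and 0.17, and 0.09 for vehicle replicate 1 with DOX replicate 2. Pairing by number was therefore an assumption. The scripts were tested on simulated data. Python 3.11.15, pandas 2.3.3, SciPy 1.17.1 and matplotlib 3.10.9 were used.

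The genes and lists were chosen with earlier results of these data known. Genes named in the text are each gene called, the 6 lowest and 6 highest log2 fold changes, the 5 highest and 5 lowest mean TPM, the S18 paralogs, and up to 3 genes at each end of a pathway list. MRPL9, MRPL11, MRPL49, MRPL57 and MRPS6 were named after their values were seen, and MRPL20 and MRPL58 for their promoter letters. Some marker genes and sequences are not reported here.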

Additional observations from a re-analysis of the deposited data

How the results depend on the processing

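With TPM as deposited, calls over all genes numbered 348 lower and 3 higher, and these counts moved with most settings. Lower calls numbered 0 after median-of-ratios scaling, after removal of the 5 small RNAs, without a minimum TPM and after GC and length correction, and 0 genes were called higher in these settings. Quantile normalization gave 1 lower and 0 higher, voom on recovered reads 1 and 0, pseudocounts of 0.1 and 0.5 gave 46 and 174 lower, and a minimum of 5 TPM gave 633 lower. Calls without adjustment numbered 2215 lower and 14 higher. Leaving out 1 replicate gave 0 to 2378 lower and 0 to 23 higher.

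The replicate block gave 2217 lower and 15 higher genes, with 2 of the mitochondrial ribosomal protein genes lower and 1 higher. The block gave 0 lower and 0 higher genes with median-of-ratios scaling or with GC and length correction, 258 lower and 165 higher with voom (0 and 5 of them mitochondrial ribosomal protein genes), and 5 lower and 0 higher with voom and GC and length correction. The block changed no other call of the mitochondrial ribosomal protein genes.

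Of the mitochondrial ribosomal protein genes, calls without adjustment of p numbered 2 lower and 1 higher, beside 19% and 0.12% of all genes. Leaving out 1 replicate gave 0 to 2 lower and 0 to 1 higher. The 2 were MRPL19 and MRPL1 without DOX replicate 2, of 76 tested, beside 2378 lower of all 11696 genes. The 1 was MRPL54 without vehicle replicate 1 or any DOX replicate. Beside it, 23 of all 11643 genes were higher without vehicle replicate 1. Without DOX replicates 1, 2 and 3, 12 of 11801, 11 of 11696 and 9 of 11729 were. The median log2 fold change of the mitochondrial ribosomal protein genes, -0.19, was -0.34 to -0.03 with 1 replicate left out. It turned positive after median-of-ratios scaling (0.22, also with the block), quantile normalization (0.22), removal of the small RNAs (0.15), GC and length correction (0.14, also with the block) and voom (0.23, 0.21 with the block and 0.20 with GC and length correction too). Median-of-ratios scaling with 1 sample left out was added after seeing the data. It gave medians of 0.25, 0.21 and 0.19 without vehicle replicates 1, 2 and 3 and 0.20, 0.18 and 0.23 without DOX replicates 1, 2 and 3. It gave 13 higher genes and 1 lower without vehicle replicate 1, 1 lower without DOX replicate 1, and otherwise 0.

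The sign of single genes turned with GC and length correction in MRPL42 (0.01, also with the block) and MRPS30 (0.03, also with the block). With voom, block and correction it turned in MRPL19 (0.00), MRPL42 (0.10), MRPS30 (0.16), MRPL1 (0.08) and MRPS31 (0.03). It turned in MRPS26 without vehicle replicate 3 (range over samples left out -0.12 to 0.69) and in MRPS30 with median-of-ratios scaling without vehicle replicate 3 (0.01). Except where a setting's own construction shows it, the cause was not tested. The 5453785 reads of vehicle replicate 3 limit the low genes.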

Other observations

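Symbols close to those of the family were not members. MRPL45P2, a pseudogene, was at 7.15, 4.89 and 8.17 TPM in vehicle and 3.17, 4.65 and 3.57 TPM in DOX samples. The DOX samples of MRPL45P2 all lay below the vehicle samples, as they did in TPM for 30.7% of all genes tested. MRPS31P5 was at 1.18, 1.14 and 1.74 TPM in vehicle and 0.727, 1.41 and 0.906 TPM in DOX samples, with overlap. Its parent gene MRPS31 and MRPL45, the parent of MRPL45P2, can share reads with these copies. How such reads were counted is not stated in the sources used here.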
